A study of Homo sapiens with 12 samples.

Results

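The microRNAs (miRNAs) of the imprinted DLK1-DIO3 locus on chromosome 14 were measured in 2 human embryonal carcinoma cell lines, and most of those present in both lines were lower in NTera-2 than in 2102Ep cells. SOX2 knock-down left nearly all of these miRNAs without a call, as it did most assays (14.6% of all called in 2102Ep and 5.54% in NTera-2 cells). Members were the assays without a minor-strand mark whose miRNA number belongs to the locus, which gave 40 of the 501 miRNA assays of the deposited table. The 12 samples form 4 groups of 3, an NC and a siSOX2 group for each line. NC cells received Ambion Silencer Select Negative Control #1, a non-targeting siRNA, and siSOX2 cells received an Ambion Silencer Select siRNA against SOX2, a transcription factor that helps to keep embryonal carcinoma cells undifferentiated. 2102Ep, a nullipotent line that does not differentiate in response to retinoic acid, was transfected with Lipofectamine 2000, and NTera-2, a pluripotent line, with Lipofectamine RNAiMAX, each for 6 h and followed by 72 h of growth. Each is 1 established line, and cell line, reagent and siRNA dose, which also differed, cannot be told apart in comparisons between the lines.

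In this imprinted domain the protein genes DLK1, RTL1 and DIO3 are read from the paternal chromosome, and the long noncoding RNA MEG3, small nucleolar RNAs and the miRNAs from the maternal one. The miRNAs are best known from embryo, placenta and brain, and expression of the maternal transcripts has been used to judge the developmental potency of mouse induced pluripotent stem cells. A mature miRNA binds mRNAs mainly through its seed, bases 2 to 8.

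All 40 members matched a mature human sequence of RefSeq (build GRCh38.p14), all on the plus strand between chr14:100852409 and 101066786, a span of 214.378 kb. 9 members lie near MEG3 and RTL1, from miR-770-5p, inside MEG3, to miR-370, and 31 lie in the array from miR-379 to miR-656. The 40 seeds were all different. The following sequences, 5′ to 3′ with the seed in capitals, are those of the 3 members that were higher in NTera-2 NC than in 2102Ep NC cells.
miR-770-5p (chr14:100852409-100852431): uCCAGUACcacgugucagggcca
miR-487b (chr14:101046505-101046526): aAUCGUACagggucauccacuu
miR-485-5p (chr14:101055427-101055448): aGAGGCUGgccgugaugaauuc
The next are the 6 members with the largest deficits in NTera-2 NC cells.
miR-127 (chr14:100883035-100883056): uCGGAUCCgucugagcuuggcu
miR-411 (chr14:101023340-101023360): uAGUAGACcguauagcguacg
miR-380-5p (chr14:101025021-101025042): uGGUUGACcauagaacaugcgc
miR-539 (chr14:101047329-101047350): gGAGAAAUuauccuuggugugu
miR-495 (chr14:101033804-101033825): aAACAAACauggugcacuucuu
miR-410 (chr14:101065961-101065981): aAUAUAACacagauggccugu
These are close relatives of members above, with seeds that differ from theirs by 1 base (miR-379 from miR-411 and miR-380-5p, miR-487a from miR-487b).
miR-379 (chr14:101022071-101022091): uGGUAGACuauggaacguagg
miR-487a (chr14:101052494-101052515): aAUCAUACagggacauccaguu
The last are the 1 member called after knock-down, miR-1197, and the 3 members measured in NTera-2 cells alone.
miR-1197 (chr14:101025620-101025640): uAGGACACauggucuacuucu
miR-433 (chr14:100881949-100881970): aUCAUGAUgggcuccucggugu
miR-496 (chr14:101060628-101060649): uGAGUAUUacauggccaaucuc
miR-656 (chr14:101066766-101066786): aAUAUUAUacagucaaccucu
The assays of miR-134, miR-379, miR-495 and miR-496 carry mouse names, and for the 26 members whose assay names no arm the arm is the one that the older name stood for.

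Levels were read as raw Ct, the PCR cycle at which a product appears, so that 1 cycle less is about 1 unit more on the log2 scale. A value counted as measured when it was given and lay below cycle 40. The 12 samples had at least 420 assays measured each and a median raw Ct over all of these between 24.49 and 25.38. All 8 markers of embryonal carcinoma and pluripotent cells (the miR-302 cluster with miR-367, and miR-371-3p to miR-373) were measured in both lines, with group means of raw Ct between 13.93 and 26.13. Of the lists for other cells, 4 neural, 2 muscle, 1 blood and 2 mesenchymal markers were measured in 2102Ep cells and 5, 2, 2 and 1 in NTera-2 cells, of 5, 2, 2 and 2 in the table, and their part in the results was not tested. SOX2 mRNA is not on the cards, so the knock-down was not checked here. In RNA from whole cultures, fewer cells holding a miRNA and less of it per cell cannot be told apart.

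Most of the cluster's deposited assays were measured in each line. Of all 501 deposited assays only 2 were blank in both lines, and no member was. Assays measured in neither line are thus nearly missing, and the shares here cannot show how much of the locus the cells held. 2102Ep cells had 37 of 40 members measured, 36 of them in all 6 samples, and NTera-2 cells had 30, all in all 6. The median raw Ct over the measured members lay between 25.21 and 25.78 in the 2102Ep samples and between 26.48 and 26.97 in the NTera-2 samples. The 2 ranges did not overlap. Over the 27 members measured in all 12 samples it was 24.38 to 25.01 and 26.52 to 27.28.

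10 members were measured in 2102Ep cells and blank in every NTera-2 sample, namely miR-493, miR-431, miR-380-3p, miR-329, miR-543, miR-654-3p, miR-889, miR-134, miR-409-5p and miR-369-3p. They make up 25% of the members, where 9.58% of all 501 assays were measured in 2102Ep cells alone. Their raw Ct in 2102Ep cells reached from the middle of the cards to its weak end. MiR-134, known from dendritic spines of neurons and as a repressor of Nanog in mouse stem cells, lay at 24.61 to 26.71, and miR-889 at 23.43 to 26.04. MiR-543 lay at 26.37 to 27.70, miR-654-3p at 25.99 to 27.00, miR-409-5p at 27.59 to 29.95 and miR-493 at 27.35 to 28.87. The other 4 were weak: miR-369-3p at 30.09 to 31.88, miR-431 at 29.00 to 33.23, miR-329 at 30.74 to 34.87 and miR-380-3p at 29.78 to 34.31, the last without siSOX2 replicate 1, where it was at cycle 40.

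3 members, or 7.5%, were measured in NTera-2 cells and blank in every 2102Ep sample, where 13.2% of all assays were measured in NTera-2 cells alone. MiR-656, the last member of the array, was among the strongest of the cluster there, with raw Ct of 21.69, 21.44 and 21.26 in NC and 22.18, 22.36 and 21.23 in siSOX2 cells. MiR-433, which like miR-127 lies antisense to RTL1, lay at 25.76 to 27.09, and miR-496 at 23.46 to 28.34. The sources used here give no reason for a blank, so no fold is given for these 13 members. Blanks were not limited to weak assays, as miR-656 and miR-134 show.

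**Figure D1:**
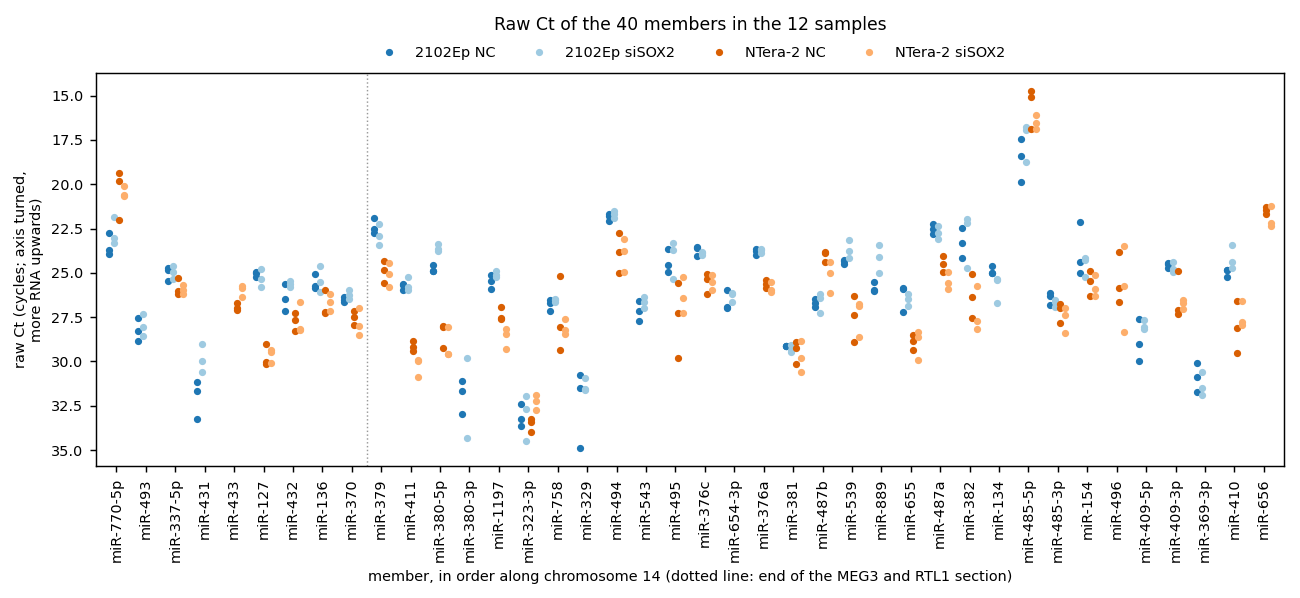
Raw Ct of each member (vertical axis, cycles, turned so that more RNA is higher) in the 12 samples, in chromosomal order from miR-770-5p to miR-656. Points are single samples coloured by group, a blank position has no measured value, and 3 members (miR-433, miR-496, miR-656) have points in NTera-2 cells alone.

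Raw Ct values of different assays depend on how well each primer set works, so the order of members is a description of the assays as much as of the RNA. In 2102Ep NC cells the lowest mean raw Ct (SD, n = 3) was that of miR-485-5p at 18.58 ± 1.21, followed by miR-494 at 21.85 ± 0.21, miR-379 at 22.39 ± 0.45, miR-487a at 22.52 ± 0.26 and miR-382 at 23.33 ± 0.83. From miR-494 to miR-382 neighbouring means lay within about 1 SD of each other or little more, by the larger SD of each pair. In NTera-2 NC cells miR-485-5p again led at 15.57 ± 1.16, ahead of miR-770-5p at 20.39 ± 1.42, miR-656 at 21.46 ± 0.21, miR-494 at 23.86 ± 1.11 and miR-487b at 24.02 ± 0.31. MiR-323-3p was the weakest member in NC cells of both lines, at 33.10 ± 0.64 and 33.54 ± 0.39.

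3 precursors had an assay for each arm, those of miR-485 on 1 card and those of miR-380 and miR-409 on different cards. These gaps are between different assays and, for the latter pair of precursors, between cards, so they are given as raw values and not as ratios of RNA. In 2102Ep NC cells the 3p arm of miR-485 came 7.83 ± 1.39 cycles (SD, n = 3) after its 5p arm, and in NTera-2 NC cells 11.6 ± 1.63 cycles after it. The 3p arm of miR-380 came 7.11 ± 0.81 cycles after its 5p arm in 2102Ep NC cells, while the 3p arm of miR-409 came earlier, at -4.30 ± 1.07 cycles from its 5p arm. In NTera-2 cells 1 arm of miR-380 and of miR-409 was blank.

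NC-treated NTera-2 cells held less of most members measured in both lines than NC-treated 2102Ep cells did. For this comparison each raw Ct was set against the mean of the sample's card over the assays measured in all 6 NC samples, since the constant that the authors' dCt takes off each card differs between the lines. Of the 27 members tested, 15 were lower in NTera-2 NC and 3 were higher, at a limma adjusted p under 0.05 taken over all 384 assays tested. Among all assays 72.9% were called, 33.6% lower and 39.3% higher, so the lines differed widely, and among the members the calls leaned to lower values (55.6% lower and 11.1% higher). The median log2 difference of the members, NTera-2 minus 2102Ep, was -1.60, a 3.04-fold lower level, and that of all assays was 0.16. The log2 difference was below 0 for 24 of 27 members, where 48.4% of all assays were.

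MiR-127, an antisense repressor of RTL1, stood furthest apart. Its log2 level relative to the card mean was -0.85, -1.01 and -0.71 in the 2102Ep NC samples and -5.35, -4.97 and -5.85 in the NTera-2 NC samples. The groups lay far from each other, 23.1-fold on average, and the log2 difference was -4.53 ± 0.29 (SE, n = 3 per group, limma adjusted p = 4e-05). MiR-411 was at -1.51, -1.43 and -1.68 in 2102Ep NC and -4.66, -4.78 and -5.03 in NTera-2 NC cells, and its difference was -3.28 ± 0.22 (limma adjusted p = 4.3e-05). MiR-380-5p was at -0.68, -0.91 and -0.88 in 2102Ep NC and at -3.51, -4.97 and -3.59 in NTera-2 NC cells, a difference of -3.20 ± 0.42 (limma adjusted p = 0.00059). In both, every NTera-2 sample lay below every 2102Ep sample. MiR-539, miR-495 and miR-410 were lower by similar amounts, 8.29-, 8.24- and 7.98-fold (limma adjusted p = 0.0015, 0.019 and 0.0088). The call of miR-495 was lost without 2102Ep NC replicate 3, and that of miR-494 (log2 difference -1.88, limma adjusted p = 0.025) without any 1 of the 2102Ep NC samples.

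The other members called lower were miR-382 (log2 difference -2.87), miR-655 (-2.47), miR-379 (-2.39), miR-487a (-1.86), miR-376a (-1.70), miR-376c (-1.69), miR-1197 (-1.43) and miR-370 (-0.89). MiR-376a and miR-376c, sister miRNAs whose precursors are known for A-to-I editing, differed between the lines by nearly the same amount. The 9 members without a call had values from -1.60 for miR-154 to -0.19 for miR-381, among them miR-409-3p (-1.44), miR-136 (-1.11), miR-432 (-0.85), miR-337-5p (-0.70), miR-485-3p (-0.65) and miR-323-3p (-0.32). Each of their 95% intervals reached a difference of 1 log2 unit or more.

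3 members ran the other way. MiR-770-5p, which lies inside MEG3 and opens the cluster, was at 0.32, 0.27 and 0.93 in the 2102Ep NC and 2.54, 4.89 and 4.63 in the NTera-2 NC samples, a log2 difference of 3.51 ± 0.63 (SE, limma adjusted p = 0.0023). MiR-487b was at -2.38, -2.72 and -2.41 in 2102Ep NC and at 0.41, 0.18 and 0.37 in NTera-2 NC cells, a difference of 2.82 ± 0.22 (limma adjusted p = 7.7e-05). MiR-485-5p was at 6.65, 4.36 and 5.92 in 2102Ep NC and at 7.88, 9.34 and 9.09 in NTera-2 NC cells, a difference of 3.13 ± 0.66 (limma adjusted p = 0.0048). In all 3 the NTera-2 samples lay above the 2102Ep samples, but with the dCt as deposited their differences turned to -4.80, -0.84 and -0.53. That scaling moved the median of all assays to -3.50 on card A and -8.14 on card B, and relative to these medians the 3 members stood 3.34, 2.66 and 2.97 above and 24 of 27 members below under each of the 5 references compared, as they must, because a reference shifts all assays of a card alike. With the dCt as deposited, 26 members were called lower and 0 higher, where 94.3% of all assays were called lower. With no reference at all, the raw Ct of these 3 members was lower in every NTera-2 NC than in every 2102Ep NC sample, and that of 18 others was higher. In the other 6 it overlapped, and this count was made for the members alone. In limma on raw Ct with no reference, 18 of 27 members were called lower, where 37.0% of all assays were.

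Neighbours on the chromosome and relatives in sequence did not share these differences throughout. MiR-487b lies between miR-381, at -0.19, and miR-539, at -3.05. MiR-487a, whose seed differs from that of miR-487b by 1 base, was lower in NTera-2 NC cells (-1.86) and miR-487b higher (2.82). MiR-485-5p and miR-485-3p come from 1 precursor and had differences of 3.13 and -0.65, the latter with a 95% interval of -1.76 to 0.47. MiR-379, miR-411 and miR-380-5p, which follow each other at the head of the array and have related seeds, were all lower. Of the members near MEG3 and RTL1, 2 of 6 tested were called lower and 1 higher, with a median of -0.87. That share of lower calls, 33.3%, lay near the 33.6% of all assays. Of the array 13 of 21 (61.9%) were called lower and 2 higher, with a median of -1.70. Among all assays 39.3% were called higher. The log2 difference was below 0 for 5 of the 6 near MEG3 and RTL1. The 2 sections did not keep this order between the siSOX2 groups. There 5 of 6 near MEG3 and RTL1 (83.3%) and 15 of 21 of the array (71.4%) were called lower, where 34.1% of all assays were.

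**Figure D2:**
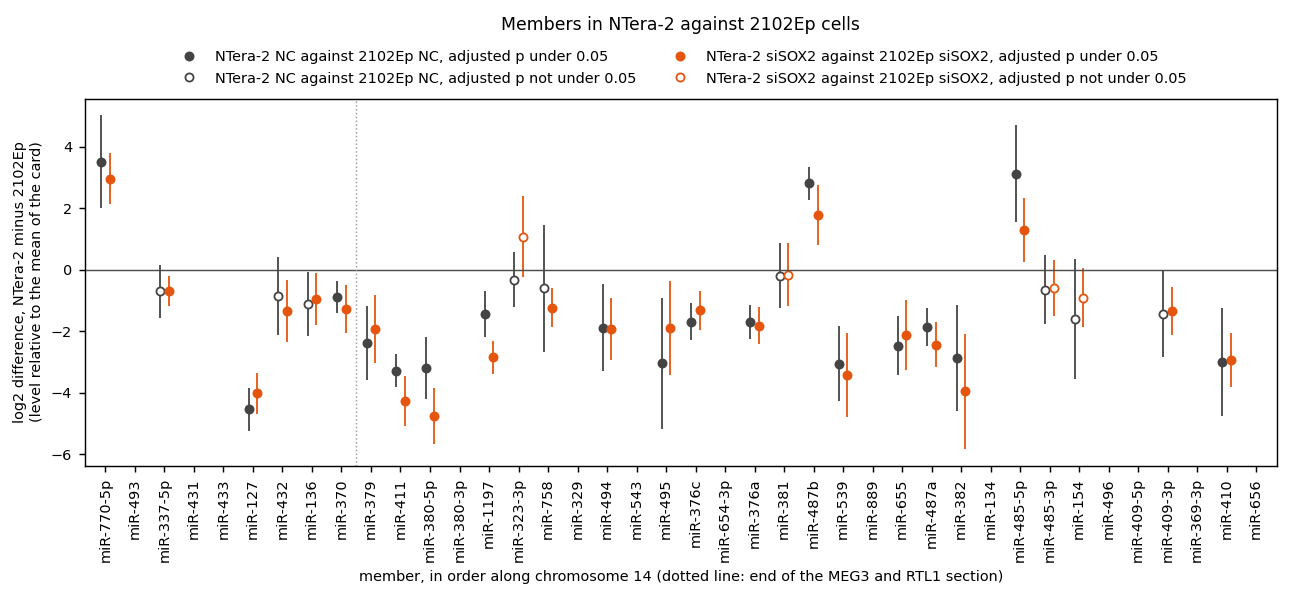
Log2 difference, NTera-2 minus 2102Ep, of each member along the chromosome, for NC samples (dark) and siSOX2 samples (orange), with 95% intervals (3 samples per group) and filled points for an adjusted p under 0.05. Most points lie below 0, and miR-770-5p, miR-487b and miR-485-5p lie above it in both comparisons (below it with the dCt as deposited).

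The same comparison between the siSOX2 samples, which are other cultures of the same lines, called 23 of 27 members, 20 lower and 3 higher, where 75.5% of all 384 assays were called (34.1% lower and 41.4% higher). The median of the members was -1.34 and that of all assays 0.08. All 18 members called between the NC groups were called again, with 5 more, miR-337-5p, miR-432, miR-136, miR-758 and miR-409-3p, all of them lower. The largest deficits were those of miR-380-5p (log2 difference -4.76), miR-411 (-4.27), miR-127 (-4.02), miR-382 (-3.96), miR-539 (-3.41) and miR-410 (-2.95), with limma adjusted p between 3.4e-05 and 0.0032. MiR-770-5p was higher by 2.97, miR-487b by 1.78 and miR-485-5p by 1.29 (limma adjusted p = 0.00029, 0.006 and 0.031). The call of miR-485-5p was lost without any 1 of the NTera-2 siSOX2 samples, and with the dCt as deposited the 3 values turned to -5.98, -2.05 and -2.54 and all 27 members were called lower, where 95.3% of all assays were and the medians of all assays moved to -3.69 on card A and -8.91 on card B. MiR-485-5p also lost its call against assays outside the cluster (adjusted p = 0.051) and for raw Ct with no reference (adjusted p = 0.15), and its raw Ct overlapped between the siSOX2 groups, while miR-770-5p and miR-487b had a lower raw Ct in every NTera-2 siSOX2 sample. The calls of miR-136, miR-337-5p, miR-432 and miR-495, with adjusted p of 0.044, 0.017, 0.023 and 0.032, were also lost without single samples, reaching 0.12, 0.078, 0.072 and 0.094. MiR-323-3p, the weakest assay, had 1.08 (limma adjusted p = 0.11). MiR-1197 was lower by 7.22-fold here (log2 difference -2.85, limma adjusted p = 5.3e-05).

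SOX2 knock-down changed no member of the cluster in 2102Ep cells at the adjusted threshold. None of the 37 members tested was called in limma, where 14.6% of all assays were, and 4 of 37 passed an unadjusted p of 0.05 or less, where 25.3% of all assays did. The log2 fold change, siSOX2 over NC from the dCt, had a median of 0.13 over the members and of 0.00 over all assays. It was above 0 for 26 of 37 members, where 49.7% of all assays were, and under 1 in size for 33. The data could not exclude moderate changes, since the 95% intervals of 29 members reached past 1 log2 unit and those of 8 stayed within it. In the same samples 23 of the 38 assays of C19MC, the imprinted miRNA cluster of chromosome 19, were called lower, and 1 of 5 tested from other imprinted loci (miR-296, at the GNAS locus, -1.15, limma adjusted p = 0.027).

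The 4 members with the smallest p were miR-431, miR-380-5p, miR-889 and miR-134. MiR-431, antisense to RTL1, had a dCt (cycles, higher meaning less RNA) of 14.95, 13.09 and 13.32 in NC and 10.76, 12.08 and 12.14 in siSOX2 cells. The groups did not overlap, and the log2 fold change was 2.13 ± 0.62 (SE, limma adjusted p = 0.075) in an assay with raw Ct of 29.00 to 33.23. MiR-889 had a dCt of 7.22, 7.87 and 7.69 in NC and 5.19, 7.08 and 5.68 in siSOX2 cells, a log2 fold change of 1.61 (limma adjusted p = 0.093). MiR-380-5p had 0.19, 0.28 and 0.27 in NC and -1.36, -0.98 and -1.05 in siSOX2 cells, a log2 fold change of 1.38 (limma adjusted p = 0.093). MiR-134 went the other way, with 6.73, 6.54 and 6.64 in NC and 7.14, 7.41 and 8.28 in siSOX2 cells, a log2 fold change of -0.97 (limma adjusted p = 0.11). In each of the 4 the siSOX2 samples stood apart from the NC samples, as did 10 of the 37 members in all, where 32% of all assays did. With RNU44 and RNU48 as reference, which moved the median of all assays to 0.67, miR-431, miR-432, miR-380-5p and miR-889 were called higher, and with the 2102Ep samples alone miR-380-5p was. Of all assays 83 were called higher and 6 lower with that reference, and 15 and 44 with the 2102Ep samples alone. In both settings members were called higher less often than assays in general.

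Other members of a set list had smaller values in 2102Ep cells, with log2 fold changes of -0.25 for miR-127, 0.03 for miR-376a, -0.21 for miR-376c, 0.06 for miR-411, 0.06 for miR-487b, 0.12 for miR-136, 0.24 for miR-370 and 0.13 for miR-494. The tightest of these was miR-376a, with a 95% interval of -0.48 to 0.54. Values for miR-379, miR-382, miR-410, miR-495, miR-154, miR-323-3p, miR-337-5p, miR-369-3p, miR-409-3p, miR-432, miR-485-3p and miR-654-3p lay between -0.76 and 0.97.

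**Figure D3:**
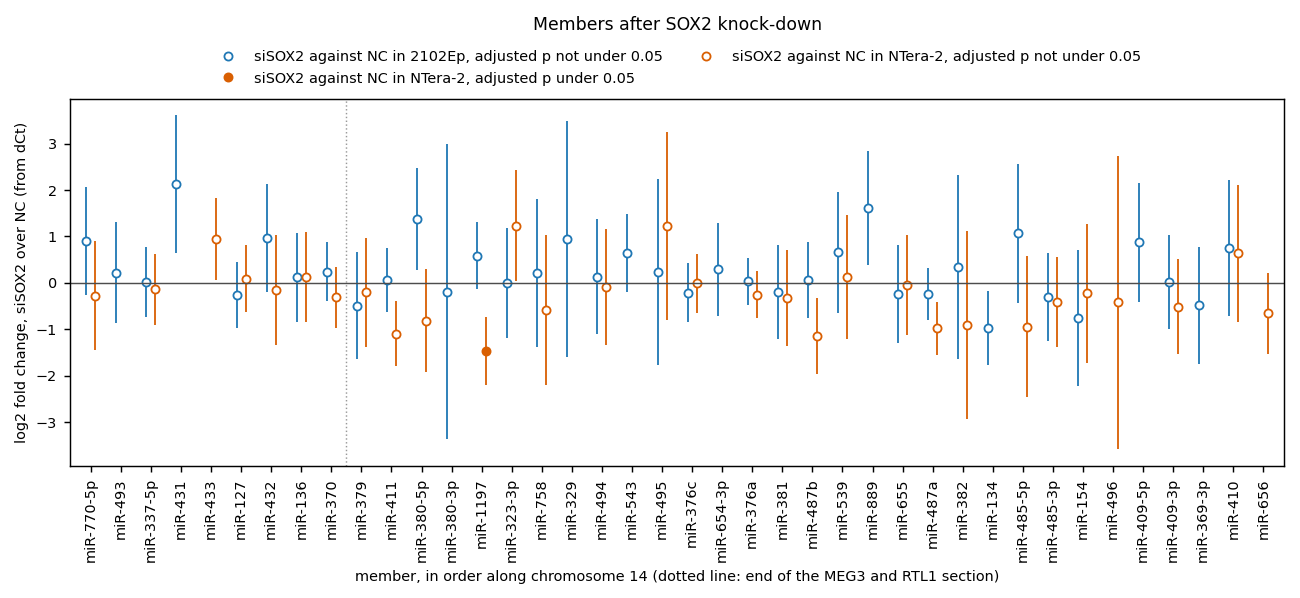
Log2 fold change, siSOX2 over NC, of each member along the chromosome in 2102Ep (blue) and NTera-2 (orange) cells, with 95% intervals (3 samples per group) and filled points for an adjusted p under 0.05. MiR-1197 in NTera-2 cells is the 1 filled point, and most intervals span 0.

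In NTera-2 cells 1 of 30 members was called after knock-down, where 5.54% of all assays were. It was miR-1197, whose dCt was 10.04, 11.26 and 10.79 in NC and 12.14, 12.63 and 11.73 in siSOX2 cells. Every siSOX2 sample held less of it than every NC sample, and the log2 fold change was -1.47 ± 0.33 (SE, limma adjusted p = 0.026), or 2.77-fold lower. With the replicate number as a block, which the pairing of the NTera-2 samples asks for, the adjusted p was 0.063. Without single NTera-2 samples it ran from 0.013 to 0.088, and the call was lost without NC replicate 1 or 3 or siSOX2 replicate 1 or 2, and with the global mean or RNU44 and RNU48 as reference. Against the global mean of each card the median of all assays moved to 0.05 and that of the members to -0.01. From the deposited dCt the median over the members was -0.26 and over all assays -0.27, so the members lay where the card as a whole did, and 23 of 30 were below 0, where 71.4% of all assays were.

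3 array members followed with lower values, groups that did not overlap and no call. With miR-1197 they were 4 of 30, where 22.8% of all assays had lower siSOX2 values without overlap. MiR-487a had a dCt of 9.92, 10.06 and 9.43 in NC and 10.42, 10.67 and 11.27 in siSOX2 cells, a log2 fold change of -0.98 ± 0.25 (limma adjusted p = 0.053). MiR-411 had a dCt of 14.41, 14.41 and 14.59 in NC and 16.35, 14.99 and 15.35 in siSOX2 cells, a log2 fold change of -1.09 ± 0.31 (limma adjusted p = 0.076). MiR-487b had a dCt of 9.34, 9.46 and 9.19 in NC and 10.46, 11.22 and 9.75 in siSOX2 cells, a log2 fold change of -1.15 ± 0.37 (limma adjusted p = 0.1). In all 3 the siSOX2 samples held less RNA than the NC samples and spread more widely. MiR-323-3p had a value above 0, 1.23 (limma adjusted p = 0.21), at raw Ct of 31.88 to 33.98 and with no overlap of its groups, and miR-433 had 0.94 (limma adjusted p = 0.2). For miR-127, miR-136, miR-376c, miR-376a, miR-379, miR-494, miR-154, miR-432, miR-337-5p, miR-370, miR-485-3p and miR-409-3p values lay between -0.51 and 0.13, and for miR-382, miR-410 and miR-495 they were -0.91, 0.64 and 1.23. That of miR-495 had a 95% interval of -0.80 to 3.25.

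Whether the response to knock-down differed between the lines was tested for the 27 members measured in both. 1 was called, miR-1197, where 6.25% of 384 assays were. In 2102Ep cells its dCt was 1.18, 0.86 and 0.83 in NC and 0.12, 0.52 and 0.47 in siSOX2 cells, a log2 fold change of 0.59 ± 0.33, and the difference between the lines, NTera-2 minus 2102Ep, was -2.06 ± 0.46 (SE, limma adjusted p = 0.032). The siSOX2 samples thus lay above the NC samples in 1 line and below them in the other. The adjusted p was 0.052 with the replicate number as a block and between 0.018 and 0.077 without single samples. The call was lost without any 1 of the 2102Ep NC samples, 2102Ep siSOX2 replicate 1, NTera-2 NC replicate 3 or NTera-2 siSOX2 replicate 1 or 2. MiR-380-5p, its close neighbour, had a difference of -2.19 (limma adjusted p = 0.085), miR-487b of -1.21 (limma adjusted p = 0.2) and miR-411 of -1.15 (limma adjusted p = 0.15).

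MiR-1197 and miR-380-5p are on card B. All 6 members measured there in 2102Ep cells had values above 0 after knock-down, with a median of 0.77. All 6 measured there in NTera-2 cells had values below 0. The 2 sets share 5 members, since miR-543 was blank in NTera-2 and miR-656 in 2102Ep cells. Of all card B assays, 53.3% were above 0 in 2102Ep and 78.5% below 0 in NTera-2 cells. The median of the 6 in NTera-2 cells was -0.59. Over all assays of card B the medians were 0.03 and -0.40. Against the global mean of each card, miR-1197 lost its call in NTera-2 cells but kept it between the lines.

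**Figure D4:**
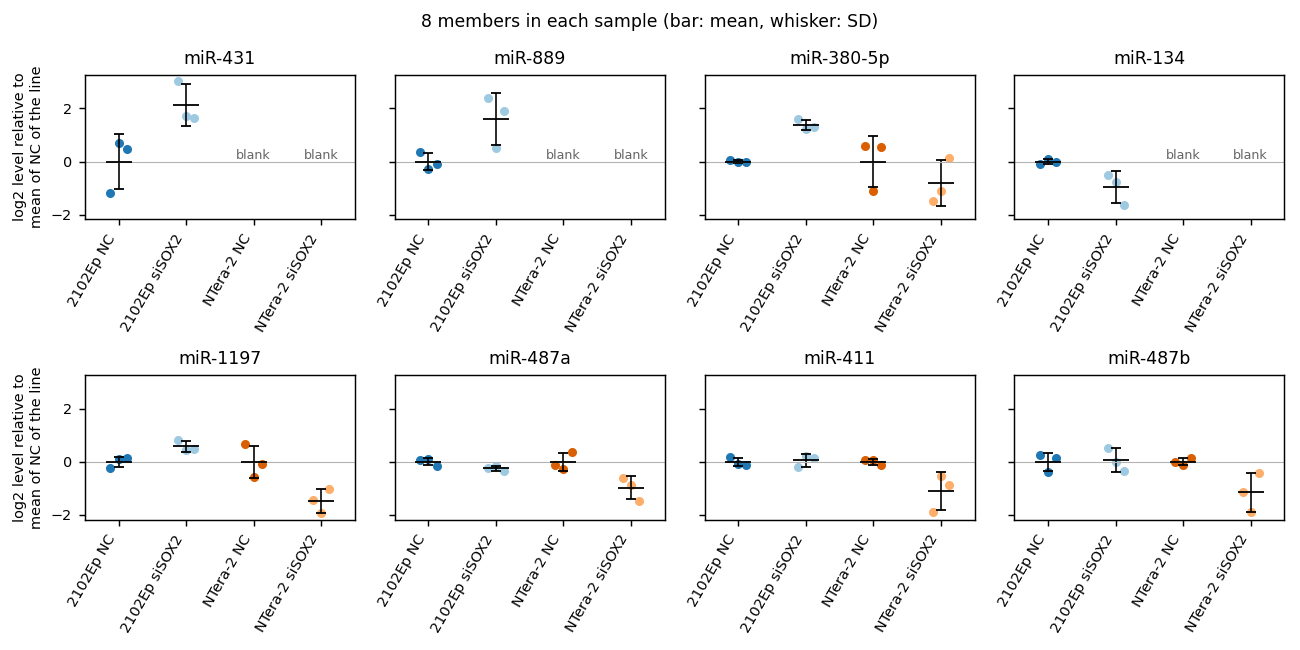
Log2 level of 8 members in each sample, relative to the mean of the NC samples of its line (from dCt, so higher is more RNA), with the mean and SD of each group (n = 3). MiR-431, miR-889, miR-380-5p and miR-134 have the smallest p in 2102Ep cells, miR-1197, miR-487a, miR-411 and miR-487b in NTera-2 cells, and miR-431, miR-889 and miR-134 were blank in NTera-2 cells.

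Minor-strand assays of 5 precursors of the cluster, outside the rule above, were measured in 2102Ep cells (miR-136*, miR-154*, miR-376a*, miR-411* and miR-432*) and 2 of them, miR-376a* and miR-432*, in NTera-2 cells. None of the 5 was called in limma after knock-down in 2102Ep cells (0 of 5 also at an unadjusted p of 0.05 or less). Both assays measured in the 2 lines were called lower in NTera-2 NC cells. MiR-432* (limma adjusted p = 0.043) varied widely, with raw Ct of 27.45, 22.71 and 21.32 in 2102Ep NC and 27.68, 30.91 and 27.54 in NTera-2 NC cells. Between the siSOX2 groups miR-376a* was called lower (-3.85) and miR-432* was not (-0.95, limma adjusted p = 0.52). Among 5 assays tested from other imprinted loci, 4 were lower in NTera-2 NC cells, miR-335 of the MEST locus (log2 difference -2.30), miR-335*, miR-483-5p and miR-483-3p of the IGF2 locus, and miR-296 was higher by 6.91 (limma adjusted p = 7.8e-06). Between the siSOX2 groups miR-335 and miR-483-3p were called lower and miR-296 higher, while miR-335* and miR-483-5p were not called (limma adjusted p = 0.063 and 0.088). In C19MC 18 of 22 were called lower and 1 higher in both comparisons. Of all 384 assays, 33.6% were called lower and 39.3% higher between the NC groups, and 34.1% and 41.4% between the siSOX2 groups.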

How the data were processed

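TaqMan Array Human MicroRNA cards A and B were run on RNA of 12 samples, labelled as biological replicates, after Megaplex reverse transcription and pre-amplification. The authors deposited raw Ct (log2 scale, DataAssist 3.0) and dCt, made by subtracting 1 constant per sample and card (within 0.02 cycles). Another deposited table holds the authors' fold change and p-value per line and was not used. From row 106 on, the raw Ct of 2102Ep siSOX2 replicate 3 stood 1 measured row early (0.590% of 339 values at the constant as placed, 99.7% after the move) and was rebuilt from the dCt. Assays measured (raw Ct below 40) in at least 2 of 3 samples per arm were tested on all assays with limma 3.58.1 in R 4.3.3 (lmFit, eBayes, two-sided, Benjamini-Hochberg over all assays): knock-down on minus dCt over 12 samples, lines on minus raw Ct centred per sample and card over 6. Tests were checked on simulated data drawn independently for each sample with a common spread per assay, so pairing and unequal spread were not covered.

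The cluster's members, the other lists and the tests were chosen with earlier results of these data known. Named are members past the threshold (where over 12, the 6 largest per direction with groups apart; where under 4, filled by p), the strongest per line, those of 1 line alone and a set list. Same-numbered NC and siSOX2 samples, whose numbers come from the labels, deviated together in NTera-2 (r across 445 assays 0.12, 0.26 and 0.16). The main fits did not pair them. The replicate block, which does, called no member in NTera-2 knock-down or for the difference between the lines. No 2 replicates held identical columns. P-values measure only the spread between these samples. Precision is limited by 3 samples per group and by assays of high raw Ct. Alternatives were other references, filters, treatment of blanks, the replicate block and leaving out each sample. The raw Ct with no reference was added after seeing the data.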

Additional observations from a re-analysis of the deposited data

Results flagged for a closer look

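The response of miR-1197 to SOX2 knock-down differed between the 2 lines in the test of that difference: -2.06 ± 0.46 on the log2 scale, NTera-2 minus 2102Ep (SE, limma adjusted p = 0.032), with log2 fold changes of -1.47 in NTera-2 and 0.59 in 2102Ep cells. It was 1 of 27 members (3.70%), where 6.25% of all assays were called. The call was lost in 7 of 12 fits that each left out 1 sample. With the replicate number as a block the adjusted p was 0.052. Groups of 3 samples are too small for a test of single outlying samples.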

How the results depend on the processing

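Blanks, weak assays and 3 samples per group limit these results most. In 2102Ep knock-down, 0 members were called from the deposited dCt, 4 at an unadjusted p of 0.05 or less, 4 with RNU44 and RNU48, 1 with the line's samples alone and 0 to 1 without single samples (1, miR-889, without siSOX2 replicate 2), and the median of 0.13 became 0.89 with RNU44 and RNU48 and 0.020 to 0.24 without single samples. The 4 with RNU44 and RNU48 were all higher, where 83 of all assays were called higher and 6 lower. In NTera-2 knock-down, 6 were called at the unadjusted p, 0 with the global mean, 0 with RNU44 and RNU48, 0 with the line's samples alone, 0 with the replicate block and 0 to 2 without single samples, with medians of -0.51 to -0.14. Of the 6, 2 were higher and 4 lower, where 20 of all assays were higher and 79 lower. Members thus passed the unadjusted p no more often than assays in general. For the difference between the lines, 4 members passed the unadjusted p, all lower, where 27 of all 384 assays were higher and 60 lower. Members called were 3 with RNU44 and RNU48 (miR-411, miR-1197 and miR-487b, all lower), 0 with the replicate block and 0 to 2 without single samples. RNU44 and RNU48 moved the median of all assays to -1.02, and 65 of all 384 assays were called lower and 0 higher. With the block, 9 rather than 25 of all assays were called in NTera-2 cells and 4 rather than 24 for the difference, while RNU44 and RNU48 gave 14 and 65. No other member's call changed with the block. In 2102Ep cells every sample deviated most like that of its own number (r 0.16, 0.17 and 0.06, a hint from the data), and the block moved the calls over all assays from 63 to 51.

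Between the NC groups, 31 of 40 members were called with blanks set to cycle 40 (18 of 27 otherwise) and 17 to 20 without single samples. The 40 include the 10 members blank in all NTera-2 and the 3 blank in all 2102Ep samples. Filling with cycle 40 sets the direction of these in advance, so their calls are no support. With that filling 388 of all 499 assays were called. The median of -1.60 became -5.52 with the dCt as deposited, -1.75 against assays outside the cluster, -1.82 for raw Ct with no reference, which was chosen after seeing the data, and -1.76 to -1.41 without single samples. MiR-370 and miR-494 lost their calls with the median raw Ct as reference (adjusted p = 0.13 and 0.087). With the dCt as deposited, miR-770-5p, miR-487b and miR-485-5p turned to -4.80, -0.84 and -0.53. Between the siSOX2 groups miR-136, miR-337-5p, miR-370 and miR-495 lost their calls with the median raw Ct as reference (adjusted p = 0.3, 0.39, 0.06 and 0.06), and miR-136 also with blanks at cycle 40. There 18 to 23 members were called without single samples, and the median of -1.34 became -5.76 with the dCt as deposited, -1.58 with a mean raw Ct of 32 or less, -2.05 with no reference and -1.61 to -1.19 without single samples. With the dCt as deposited miR-770-5p, miR-487b, miR-485-5p and miR-323-3p turned to -5.98, -2.05, -2.54 and -2.75. These turns follow from the card constants, which differ between the lines, and for the other changes the cause was not tested.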
